A study of Mus musculus with 3 samples.

Results

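The small leucine-rich proteoglycans of mouse patellar tendon were followed here as 10 genes: Dcn, Bgn, Aspn, Fmod, Lum, Kera, Prelp, Omd, Ogn and Podn. A row was taken where its symbol equalled one of these names, and all 10 were found in all 3 matrices, among 32288 features. The tendons came from wild-type mice with no treatment named in the labels: 1 library of 2-week-old animals and 2 libraries of 20-week-old animals (replicates 1 and 2), which were compared as young against adult. The tissue between the patella and the tibia was digested with type I collagenase, blood-lineage and endothelial cells were removed by fluorescence-activated sorting, and the remaining cells were read with droplet-based single-cell RNA-seq. Pooling of animals is not stated, nor whether the 20-week libraries came from separate animals, so p-values cannot be taken to measure the spread between animals. With 1 library at 2 weeks, spread could be estimated only between the 20-week libraries. In tests within cell classes it was a spread common to all genes.

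These proteins share a core of leucine-rich repeats that binds collagen, and they set how collagen fibrils grow, space and cross-link in tendon, cornea and bone. The family is divided by its core sequence and its sugar chains. Class I holds decorin (Dcn) and biglycan (Bgn), which carry chondroitin or dermatan sulfate, and asporin (Aspn), whose N-terminal end is a stretch of aspartates. Class II holds fibromodulin (Fmod), lumican (Lum), keratocan (Kera), the arginine- and proline-rich PRELP (Prelp) and osteoadherin (Omd), several of which carry keratan sulfate or sulfated tyrosines. Class III is represented by osteoglycin (Ogn) and class V by podocan (Podn).

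Several members lie side by side in the genome (GENCODE annotation of GRCm38). On chromosome 10, Dcn (97479609-97518143), Lum (97565128-97572703) and Kera (97606879-97613692) follow each other on the plus strand. On chromosome 13, Aspn (49544443-49567565), Omd (49582462-49592822) and Ogn (49608046-49624501) do so, also on the plus strand. Prelp (133910304-133921414, minus strand) and Fmod (134037254-134048277, plus strand) lie on chromosome 1, Podn (108014791-108096445, minus strand) on chromosome 4 and Bgn (73483602-73495933, plus strand) on chromosome X. Podn overlaps Scp2 on the same strand by 52607 bases, and Scp2 has 6171 UMIs against 1952 of Podn over all libraries, so Podn values are uncertain wherever reads could be split between them. Cenpp overlaps Aspn, Omd and Ogn on the opposite strand, with 162 UMIs in all.

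The 3 chromosome 13 neighbours are shown by the 250 bases before their RefSeq starts (GRCm38.p6, plus strand, 5′ to 3′), because they sit in a row and yet Omd, unlike Aspn and Ogn, had its highest level among the named classes in osteogenic-like cells, as given below. Capitals mark TATAAA on either strand and the E-box pattern CANNTG, which reads the same on both strands. Matches of TATAAA on opposite strands may overlap, and the 2 in the Ogn window lie in 1 marked stretch.
Aspn, chr13:49544193-49544442: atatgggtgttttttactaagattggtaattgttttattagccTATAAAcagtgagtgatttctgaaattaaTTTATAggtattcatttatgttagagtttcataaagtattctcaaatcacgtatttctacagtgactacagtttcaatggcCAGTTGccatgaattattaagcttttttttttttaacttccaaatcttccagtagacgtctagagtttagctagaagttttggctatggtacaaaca
Omd, chr13:49582212-49582461: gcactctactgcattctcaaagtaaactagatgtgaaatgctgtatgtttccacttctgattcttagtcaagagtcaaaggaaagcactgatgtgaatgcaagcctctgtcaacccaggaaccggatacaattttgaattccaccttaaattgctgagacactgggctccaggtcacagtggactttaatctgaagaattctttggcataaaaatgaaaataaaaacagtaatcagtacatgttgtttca
Ogn, chr13:49607765-49608014: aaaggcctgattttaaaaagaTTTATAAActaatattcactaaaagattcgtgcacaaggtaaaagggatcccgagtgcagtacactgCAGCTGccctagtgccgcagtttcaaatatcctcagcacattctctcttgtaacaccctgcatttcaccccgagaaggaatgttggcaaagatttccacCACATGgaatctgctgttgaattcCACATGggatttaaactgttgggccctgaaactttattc
The Aspn window holds 2 TATAAA matches and 1 CANNTG, the Ogn window 2 and 3, and the Omd window holds neither. In 32851 RefSeq promoter windows of this length, 12.4% held TATAAA and 66.2% held CANNTG. These are matches of letters and say nothing of which factor binds there. RefSeq entries were found for 8 of the 10 members; the windows of Kera and Prelp overlap annotated exons and are not shown.

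After filtering, 4739, 606 and 1006 cells were left in the 2-week library and in 20-week replicates 1 and 2, with a median of 6492, 2849.5 and 5133 UMIs per cell. The 2-week library shared 2 cell barcodes with replicate 1 and 3 with replicate 2. Cells were grouped into 20 clusters, numbered 0 to 19, without the 10 members and 7 related genes, and clusters were named only from marker genes. The tenocyte-like class (7 of 7 tenocyte markers such as Tnmd and Scx detected in each library) had 661, 243 and 155 cells. The progenitor-like class (8 of 8 markers such as Pi16 and Cd55) had 884, 161 and 478, and the mural-like class, the contractile cells around vessels (12 of 12), had 848, 51 and 41. The young and adult cells of a class came largely from different clusters: at 2 weeks tenocyte-like cells were clusters 4 (led by Angptl7 and Crabp1, 443 cells) and 9 (led by Col22a1 and Tnmd, 210 cells), whereas at 20 weeks they were mainly cluster 6 (led by Spp1, Ibsp and Cytl1, 230 and 108 cells). The name of cluster 6 is uncertain: its 10 leading genes hold the tenocyte markers Scx and Comp, but also the osteogenic marker Ibsp, and it shares Spp1, Ibsp and Clec3a with osteogenic-like cluster 14 and Cytl1 with chondrocyte-like cluster 10. Adult values of the tenocyte-like class are largely those of this cluster. Progenitor-like cells were clusters 1 and 13 at 2 weeks (680 and 189 cells) and cluster 2 at 20 weeks (150 and 468 cells). Chondrocyte-like (248) and osteogenic-like (148) cells were met only in the 2-week library, and muscle fibre-like (83) and B-lineage-like (65) cells only in 20-week replicate 2, so each of these 4 classes may reflect its library. Osteogenic-like cluster 14 was named from Ibsp and Bglap, but its 10 leading genes also hold the chondrocyte marker Snorc.

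Levels are given as CPM, the UMIs of a gene per 1000000 UMIs of the same cells. A UMI marks 1 captured RNA by its 3′ end, so levels were compared between genes without dividing by length. The family as a whole took 1.87% of the UMIs of tenocyte-like cells at 2 weeks and 4.36% and 3.96% in the 20-week replicates. In progenitor-like cells it took 1.40%, 1.65% and 2.58%. In mural-like cells it took 0.181%, 0.266% and 0.184%, which is the lowest of these 3 classes in each library.

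**Figure D1:**
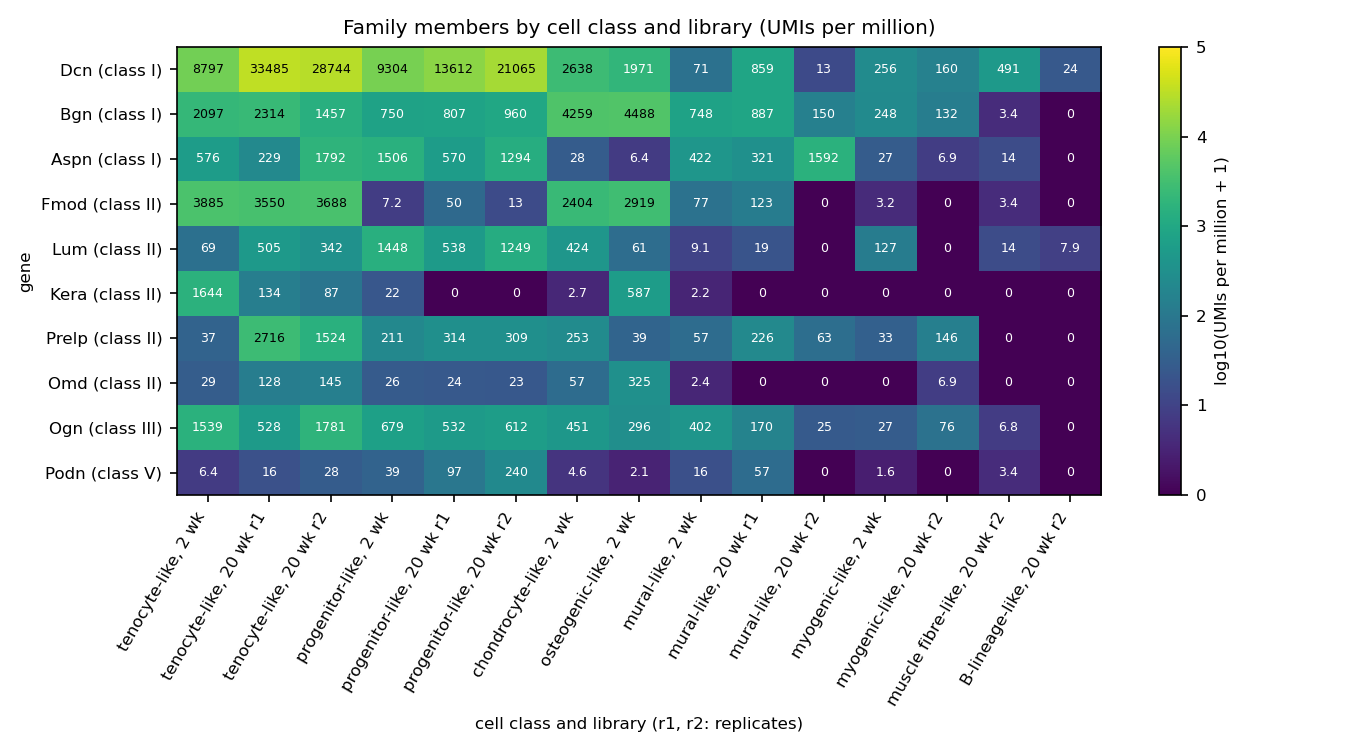
Level of each family member (rows, with protein class) in each named cell class and library (columns) in CPM; colour is log10(CPM + 1). Dcn is the highest member in tenocyte-like and progenitor-like cells of all 3 libraries, while Fmod and Kera are high in tenocyte-like and low in progenitor-like cells.

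Dcn was the leading member in tenocyte-like and progenitor-like cells of every library. Tenocyte-like cells held 8797 CPM of Dcn at 2 weeks and 33485 and 28744 CPM in the 20-week replicates. Progenitor-like cells held 9304, 13612 and 21065 CPM. Both adult libraries were therefore above the young one in each class, but the difference did not pass the test in tenocyte-like cells (log2 fold change 1.66, SE 0.96, adjusted p = 0.352, edgeR) or in progenitor-like cells (0.92, SE 0.80, adjusted p = 0.865). The leading member was Bgn, not Dcn, in chondrocyte-like and osteogenic-like cells: Bgn stood at 4259 CPM (exact 95% Poisson interval 4155-4364) against 2638 CPM of Dcn (2557-2721) in the former, and at 4488 (4354-4625) against 1971 (1882-2062) in the latter. Such intervals cover counting error only.

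Bgn binds collagen and the growth factor TGF-beta much as decorin does. As a ratio to mural-like cells, its level in tenocyte-like and progenitor-like cells differed less than that of Dcn. Between tenocyte-like and progenitor-like cells, however, Bgn differed more than Dcn in each library. The Bgn level was 2097, 2314 and 1457 CPM in tenocyte-like cells, 750, 807 and 960 CPM in progenitor-like cells, and 748, 887 and 150 CPM in mural-like cells. The progenitor-like and mural-like levels were close at 2 weeks and in replicate 1 and apart in replicate 2. The young and adult ranges overlapped in tenocyte-like and mural-like cells, and Bgn did not pass the test in either (adjusted p = 0.926 and 1.00, edgeR) or in progenitor-like cells (adjusted p = 0.99). Among clusters left unnamed, cluster 5 (led by Aqp1 and Ccl19), almost wholly of the 2-week library, held 3275 CPM.

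Aspn, an inhibitor of TGF-beta signalling, split the tenocyte-like clusters. Cluster 4 held 57.7 CPM at 2 weeks, and cluster 9 held 2293 CPM in the same library and 6268 CPM in 20-week replicate 2. Cluster 6 held 200 and 470 CPM in the 20-week replicates. The class as a whole, which mixes these clusters, held 576 CPM at 2 weeks and 230 and 1792 CPM in the replicates, with the young value between the adult ones. Aspn was also the member that mural-like cells held at 422, 321 and 1592 CPM, and in replicate 2 it made up 86.4% of the family's UMIs there. Those 41 cells of replicate 2 also carried 1178 CPM summed over 8 of 8 endothelial markers, against 18.8 CPM at 2 weeks and 37.7 CPM in replicate 1; the part of these in the Aspn level was not tested. In progenitor-like cells Aspn stood at 1506, 570 and 1294 CPM. No age difference of Aspn passed the test in these 3 classes (adjusted p = 0.828, 0.875 and 1.00, edgeR).

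**Figure D2:**
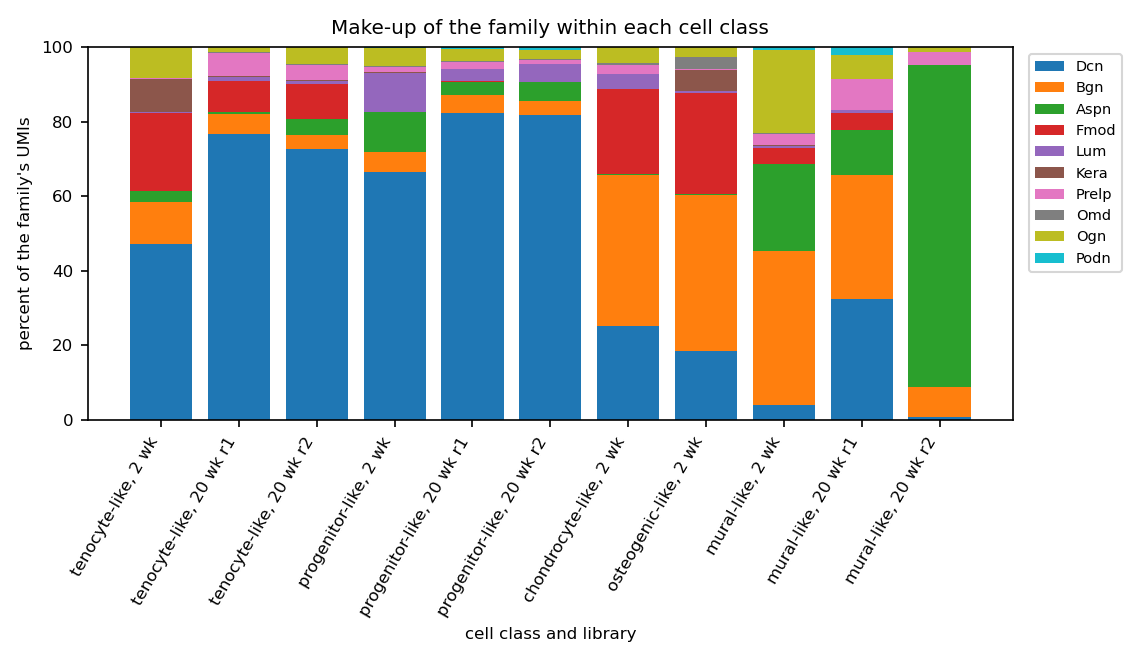
Share of the family's UMIs (percent) held by each member, for 5 cell classes by library. Dcn takes 47.1% in young and 76.8% and 72.6% in adult tenocyte-like cells, Bgn takes 40.5% and 42.0% in chondrocyte-like and osteogenic-like cells, and Aspn dominates the mural-like cells of 20-week replicate 2.

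The 3 class I genes together made up 61.4% of the family's UMIs in tenocyte-like cells at 2 weeks and 82.6% and 80.8% in the 20-week replicates. The 5 class II genes made up 30.3%, 16.1% and 14.6%. Their summed level did not fall in step with this share: class II stood at 5664, 7033 and 5786 CPM, while class I stood at 11471, 36029 and 31993 CPM. In progenitor-like cells the class II share was 12.3%, 5.60% and 6.19%. Class II was highest as a share in osteogenic-like cells, with 36.8%. Class III, which is Ogn alone, varied from 1.21% to 8.24% in tenocyte-like cells, and class V, Podn alone, stayed at or below 0.0706% there and reached 0.931% in progenitor-like cells. These shares are descriptions with no test.

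Within class II, Fmod and Kera were genes of the tenocyte-like, osteogenic-like and, for Fmod, chondrocyte-like cells, whereas Lum was highest in other cells. Fmod, which takes part in collagen cross-linking, stood at 3885, 3550 and 3688 CPM in tenocyte-like cells, nearly the same in all 3 libraries. The share of these cells with an Fmod UMI was nevertheless lower at 20 weeks, at 88.5%, 60.9% and 56.1% with each cell thinned to 1000 UMIs (98.5%, 68.7% and 69.0% before thinning). It stood at 2404 CPM in chondrocyte-like and 2919 CPM in osteogenic-like cells. In progenitor-like cells it was 7.22, 50.3 and 12.7 CPM. Its age difference in tenocyte-like cells was -0.27 on the log2 scale (SE 0.83, adjusted p = 0.932, edgeR). The constant level of the class hid unlike clusters: 4423 CPM in cluster 4 and 2149 CPM in cluster 9 at 2 weeks, 6930 CPM in cluster 9 of replicate 2, and 3244 and 2628 CPM in cluster 6.

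Lum was placed otherwise in 2 of the 3 libraries. Progenitor-like cells held 1448 CPM at 2 weeks and 538 and 1249 CPM at 20 weeks. The small unnamed cluster 16 (led by Cp and Apod, 81 young cells) held 4575 CPM. Tenocyte-like cells held 69.2 CPM at 2 weeks and 505 and 342 CPM at 20 weeks, so the classes were far apart in the 2-week library and in replicate 2 but close in replicate 1. Members of 1 protein class thus did not share 1 placing: over 29 pairs of cluster and library with at least 20 cells, the log2 levels of Fmod and Lum had a Pearson correlation of 0.11, those of Fmod and Kera 0.78, and those of Dcn and Lum 0.83. Over the 15 pairs of the 2-week library these correlations were -0.26, 0.75 and 0.81. Over the 14 adult pairs they were 0.45, 0.95 and 0.92, so that of Fmod and Lum differed in sign between the ages. The points share libraries and depth, so these are descriptions.

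Between the ages, 4 of the 10 members passed the test in tenocyte-like cells (edgeR, adjusted p under 0.05), against 9.5% of all 7853 genes tested. All 4 are class II genes. Prelp, Lum and Omd were higher at 20 weeks and Kera was lower; 4.7% of all genes were called higher and 4.8% lower. The test has 1 young library, which is assumed to vary like the adult ones, and only 1 residual degree of freedom, so it rests on the spread shared over genes. With sums thinned to the smallest library 2 members were called (4.57% of genes), and with the family kept for clustering also 2 (1.93% of genes).

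Prelp, whose arginine- and proline-rich end binds heparan sulfate, showed the widest gap. It had 37.3 CPM at 2 weeks (216 UMIs) and 2716 and 1524 CPM in the 20-week replicates (2000 and 1090 UMIs). Both adult libraries were far above the young one. The log2 fold change was 5.70 (SE 1.09, adjusted p = 8.09e-06, edgeR after TMM scaling). With each cell thinned to 1000 UMIs, a Prelp UMI was found in 4.39% of young and in 81.1% and 64.5% of adult tenocyte-like cells (17.5%, 95.9% and 85.2% before thinning). The share in mural-like cells was 4.48%, 25.5% and 9.76% after thinning (24.2%, 33.3% and 12.2% before), so the young tenocyte-like share was not above it. In replicate 2, 0 of 65 B-lineage-like and 0 of 83 muscle fibre-like cells held a Prelp UMI, which allows shares of up to 5.52% and 4.35% (exact binomial limit). Free RNA was not measured; median depths were 7873, 2968 and 4100 UMIs in tenocyte-like and 6846.5, 1924 and 1863 in mural-like cells.

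Kera, a keratan sulfate proteoglycan best known from the corneal stroma, moved the other way. It had 1644 CPM at 2 weeks (9532 UMIs) and 134 and 86.7 CPM at 20 weeks (99 and 62 UMIs). The young library was above both adult ones, and the log2 fold change was -4.03 (SE 0.74, adjusted p = 3.22e-06, edgeR). The share of thinned cells with a Kera UMI was 66.3% at 2 weeks and 10.3% and 9.03% at 20 weeks (87.1%, 16.05% and 14.2% before thinning), against 0.236%, 0% and 0% in mural-like cells. Those 0 counts of 51 and 41 cells allow shares of up to 6.98% and 8.60% (exact binomial limit).

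Lum in tenocyte-like cells was 69.2 CPM at 2 weeks and 505 and 342 CPM at 20 weeks, with both adult libraries above the young one (log2 fold change 2.47, SE 0.76, adjusted p = 0.015, edgeR). Omd, an acidic member known from mineralized tissue, was 29.0 CPM at 2 weeks and 128 and 145 CPM at 20 weeks (2.05, SE 0.60, adjusted p = 0.00912). Its highest level in any named class was 325 CPM (290-363) in young osteogenic-like cells. Of these 4 members, Prelp and Kera were called in all 6 alternative analyses tested, and Lum and Omd in 3 each; Lum did not pass with UMI sums thinned to the smallest library, a stricter cell filter or the family kept for clustering, and Omd not with thinned sums, with DESeq2 or with the family kept for clustering (adjusted p up to 0.216 and 0.208). Without cluster 6, replicate 2 over the 2-week library gave log2 ratios of 4.75 for Prelp, -4.07 for Kera, 1.88 for Lum and 1.32 for Omd, values with no test that were added after the data were seen; replicate 1 then kept too few cells.

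The other members of tenocyte-like cells did not pass. Ogn, whose loss is known to thicken collagen fibrils, had 1539 CPM at 2 weeks and 528 and 1781 CPM at 20 weeks, so that the ages overlapped (adjusted p = 0.761, edgeR). Like Aspn, it was highest in cluster 9: 1098 CPM in cluster 4, 3015 and 3846 CPM in cluster 9 at 2 weeks and in replicate 2, and 458 and 1130 CPM in cluster 6. Podn had 6.38, 16.3 and 28.0 CPM (log2 fold change 1.59, SE 0.70, adjusted p = 0.156).

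Several marker lists of other cells moved with age inside the tenocyte-like class. The 4 synovial lining markers, all detected, summed to 714 CPM at 2 weeks and 9490 and 8931 CPM at 20 weeks. The 9 osteogenic markers summed to 6.73, 879 and 1093 CPM, with Bglap, Sp7 and Dmp1 at 0 in all 3 libraries, and the 11 chondrocyte markers to 1329, 295 and 330 CPM. Their part in the results above was not tested.

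Cluster 9 was the only tenocyte-like cluster with at least 20 cells at both ages (210 young cells, and 44 of replicate 2), so it was used to set like against like, as counts of 2 libraries with no test of age. Prelp went from 51.4 to 1511 CPM, a ratio of 29.4 (22.4-39.0), and Kera went from 1135 to 124 CPM, a ratio of 0.109 (0.0665-0.169). Lum went from 124 to 316 CPM (ratio 2.55, 1.83-3.52) and Omd from 20.9 to 92.9 CPM (4.45, 2.21-8.63). The 4 genes called in the class thus had the same direction within this cluster. Its cells are part of the class sums, so this is not a separate result. Dcn (5.33, 5.11-5.57), Fmod (3.22, 3.01-3.46), Aspn (2.73, 2.54-2.94) and Ogn (1.28, 1.17-1.39) were also higher in CPM. Bgn was lower (0.499, 0.432-0.573). The interval for Podn (0.624-4.57) includes 1. Intervals are exact 95% binomial ones and cover counting error only. The ratios are of CPM without TMM scaling, so a fall of very abundant genes raises the ratios of all others. In the whole class, Col1a1 and Col1a2 stood at 89774 and 61740 CPM at 2 weeks after TMM scaling. In replicate 2 they stood at 2349 and 2918 CPM. Their part in small ratios such as that of Ogn was not tested.

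**Figure D3:**
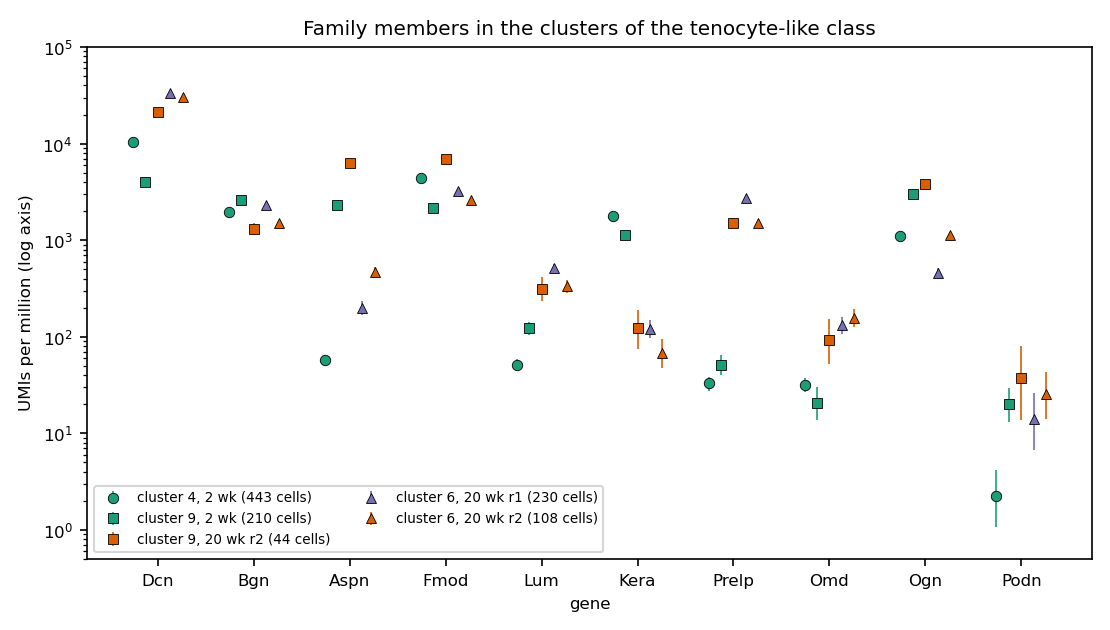
CPM (log axis) of the 10 members in the tenocyte-like clusters, by library; bars are exact 95% Poisson intervals. The adult points of Prelp and Omd lie above the young ones and those of Kera below, whereas Aspn separates cluster 9 from clusters 4 and 6 at either age.

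In progenitor-like cells 3 of the 10 members passed the test (edgeR, 11350 genes), against 4.44% of all genes tested. Kera and Podn were called in opposite directions and Fmod was called at very low counts. Of the 145 UMIs of Kera at 2 weeks (22.3 CPM), 142 were in cluster 1 (29.3 CPM) and 2 in cluster 13 (1.27 CPM). Adult cells were mainly of another cluster, cluster 2. Kera had no UMI in either adult library, where 3 UMIs would be 6.04 and 0.973 CPM. It was at least 26.6-fold lower at 20 weeks, with 3 UMIs over both adult libraries in place of 0 (adjusted p = 1.81e-08, edgeR). This bound rests on replicate 2: with 3 UMIs in place of 0 in 1 library, it is at least 3.69-fold for replicate 1 alone and 22.9-fold for replicate 2 alone. With likely doublets kept the fitted log2 fold change was -2.98 (adjusted p = 0.00105), which is smaller than the bound. Podn, a member that slows smooth muscle growth in vessel walls, had 38.7 CPM at 2 weeks and 96.6 and 240 CPM at 20 weeks, both above the young library (log2 fold change 2.14, SE 0.59, adjusted p = 0.00942). It was not called under thinned sums, DESeq2 (adjusted p = 0.0988) or a clustering resolution of 1.0 (adjusted p = 0.33). Under each of these 3 settings 1 member was called, against 2.74%, 1.23% and 3.48% of genes. A Podn UMI was found in 4.75%, 11.8% and 20.1% of thinned progenitor-like cells (22.2%, 24.2% and 64.0% before thinning) and in 1.89%, 3.92% and 0% of mural-like cells.

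The Fmod call in progenitor-like cells rests on 47, 25 and 39 UMIs (log2 fold change 1.96, SE 0.60, adjusted p = 0.0286, edgeR). Replicate 1, at 50.3 CPM, was highest, and without it the log2 ratio was 0.67 with no test possible. In the same library mural-like cells held 123 CPM of Fmod and 859 CPM of Dcn, against 77.0 and 71.2 CPM at 2 weeks and 0 and 12.5 CPM in replicate 2 (where 3 UMIs are 37.6 CPM). In the 2-week library and replicate 1 mural-like cells thus held more Fmod than progenitor-like cells did. The part of such differences between libraries in the Fmod call was not tested. The call was kept in 2 of 7 alternatives.

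The other members of progenitor-like cells had no called age difference. Lum was at 1448, 538 and 1249 CPM (adjusted p = 0.872, edgeR), Prelp at 211, 314 and 309 CPM (0.899), Omd at 26.3, 24.2 and 22.7 CPM (0.991) and Ogn at 679, 532 and 612 CPM (0.991). The adult values of Prelp lay above the young one and those of Lum, Omd, Aspn and Ogn below it, each by less than the test could separate. Progenitor-like cells of replicates 1 and 2 also carried more of the tenocyte markers, 421 and 623 CPM against 111 CPM at 2 weeks, and of the 4 synovial lining markers, 1458 and 1680 CPM against 161 CPM. Their part in these values was not tested.

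**Figure D4:**
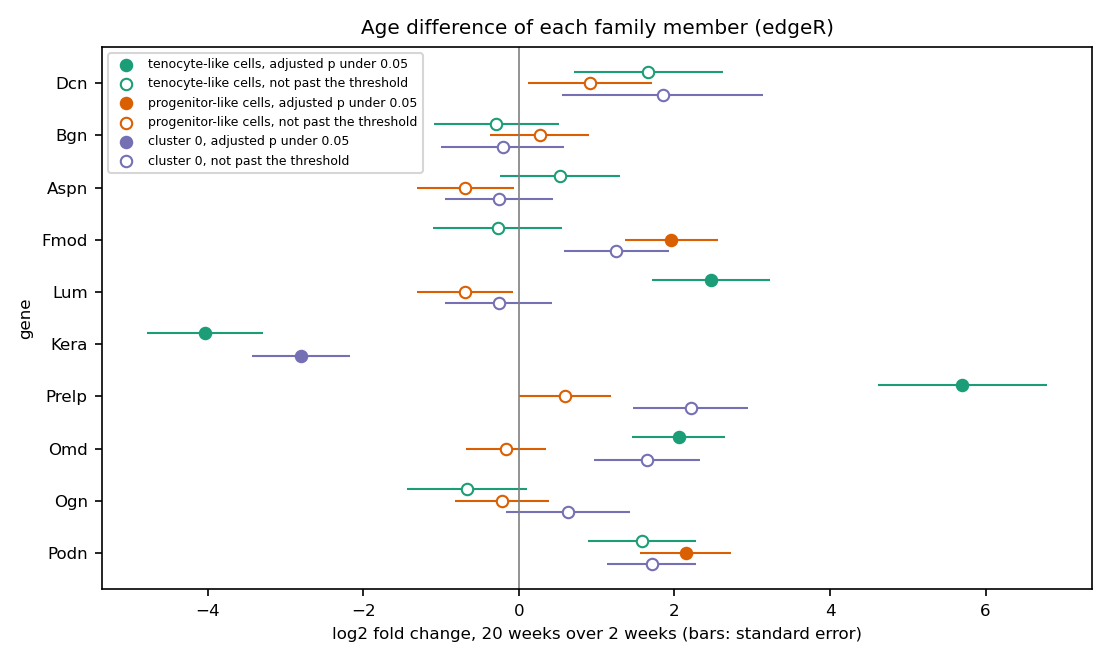
Log2 fold change of each member, 20 weeks over 2 weeks, with its standard error, in tenocyte-like cells, progenitor-like cells and cluster 0; filled points passed an adjusted p of 0.05. Prelp and Kera stand farthest from 0 in tenocyte-like cells; Kera in progenitor-like cells is left out, since adult cells had no UMI.

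The difference of the age effect between tenocyte-like and progenitor-like cells was itself tested (edgeR, library as a block, 11403 genes, of which 5.35% passed). It passed for Prelp (4.98 on the log2 scale, SE 0.49, adjusted p = 1.70e-21), Lum (3.18, SE 0.46, adjusted p = 1.04e-09), Omd (2.22, SE 0.42, adjusted p = 9.00e-06) and Fmod (-2.03, SE 0.55, adjusted p = 0.00656). The adult-over-young difference of Prelp, Lum and Omd was thus larger in tenocyte-like cells than in progenitor-like cells. This test too has 1 young library and 1 residual degree of freedom, so its small p-values do not measure spread between animals. Young and adult cells of both classes were largely of different clusters. The part of that change of cluster in these differences was not tested. The Fmod difference turns on the low counts above and was -0.45 (adjusted p = 0.941) at a clustering resolution of 1.0. For Kera the difference was 4.48 (SE 1.59, adjusted p = 0.0964) and depends on the adult progenitor-like cells with no UMI.

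Cluster 0, an unnamed cluster led by Igfbp3, Sfrp2 and Ptn with 945, 44 and 87 cells, was added as a comparison after the data were seen, because its cells come from 1 cluster at both ages. Here 1 of 10 members passed (edgeR, 5907 genes, of which 2.54% passed). Kera fell from 370 CPM to 78.5 and 36.7 CPM (log2 fold change -2.80, SE 0.63, adjusted p = 0.000998). DESeq2 gave it an adjusted p of 0.0557 and called no member, against 1.56% of genes. Prelp stood at 150, 898 and 422 CPM (2.21, SE 0.74, adjusted p = 0.099) and Podn at 37.2, 78.5 and 150 CPM (1.71, SE 0.57, adjusted p = 0.0962), both with the adult libraries above the young one and neither past the threshold. Within cluster 0 the 7 tenocyte markers summed to 1126, 3854 and 3030 CPM and the 4 synovial lining markers to 403, 2921 and 4184 CPM, and their part in these differences was not tested. In cluster 11 (led by Mmp3 and Cxcl14, 116, 87 and 41 cells) 1 of 9 members tested was called, against 2.09% of 4839 genes: Fmod, with 19.8, 209 and 0 CPM, rested on replicate 1 alone and had a log2 ratio of -2.59 without it. No member was called there with no filter on low counts (0.704% of genes) or with thinned sums (1.59%). The Fmod call was also lost with DESeq2. Other members had both adult libraries on the same side of the young one and were not called by edgeR. Among them were Podn (48.5, 125 and 557 CPM) and Aspn (986, 101 and 159 CPM).

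Mural-like cells gave no called member among the 6 that passed the filter on low counts, against 0.0749% of 2670 genes (edgeR; 85 genes had an unadjusted p under 0.05). Lum, Kera, Omd and Podn were under the filter. The replicates disagreed on most members: Dcn was at 71.2, 859 and 12.5 CPM and Ogn at 402, 170 and 25.1 CPM. The cells were largely cluster 3 (led by Actg2 and Cnn1, 456 cells) at 2 weeks and cluster 8 (led by Rgs5 and Kcnj8, 37 of 41 cells) in replicate 2. In cluster 8 alone, 0 of 4 members tested were called, against 0.222% of 1801 genes (48 with an unadjusted p under 0.05).

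In sums over all cells no member was called, against 0.151% of 13230 genes, of which 1186 had an unadjusted p under 0.05. Kera (390, 62.5 and 14.0 CPM; log2 fold change -3.23, SE 0.91), Podn (26.4, 63.1 and 181 CPM; 2.16, SE 0.64) and Prelp (126, 1323 and 422 CPM; 2.92, SE 1.05) had adjusted p of 0.332, 0.359 and 0.446 (edgeR). Such sums mix a change of level with a change in the cells present. With the 4 classes met in 1 age only left out, an alternative added after seeing the data, these 3 members were called (adjusted p = 0.00116, 0.0278 and 0.0458) against 4.13% of 12699 genes. In all cells DESeq2 called 3 members (1.64% of genes), and so did edgeR with no filter on low counts (3.43%).

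The members were measured together in single cells as well. After thinning to 1000 UMIs, the median tenocyte-like cell held UMIs of 4 members at 2 weeks and of 4 and 5 at 20 weeks; the median progenitor-like cell held 3 in each library, and the median mural-like cell 1, 2 and 1. Before thinning these medians were 6, 5 and 6, then 6, 4 and 6, and 3, 2 and 1. All 65 B-lineage-like cells held none after thinning, and 95.2% of muscle fibre-like cells held none. Dcn UMIs were present in 99.1%, 100% and 100% of thinned progenitor-like cells and in 4.48%, 47.1% and 0% of mural-like cells (99.8%, 100% and 100%, and 19.1%, 64.7% and 2.44%, before thinning).

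The genes whose levels were most like a member over the 29 pairs of cluster and library, among 11734 genes, were named by correlation of log2(CPM + 10). They were Igfbp6 (Pearson r 0.935), Serpinf1 (0.932) and Clmp (0.899) for Dcn, and Cilp2 (0.947), Chad (0.926) and Ecrg4 (0.905) for Fmod. Lum was most like Pdgfra (0.912), Steap3 (0.908) and Dnm1 (0.877), and Kera most like Pla2g12b (0.884), Cybrd1 (0.869) and the tenocyte marker Tnmd (0.857). For Prelp they were Sod3 (0.855), Pam (0.811) and Myoc (0.803), for Bgn Vkorc1, Atraid and Cd9 (0.891 to 0.881), and for Aspn Nfatc4, Arrdc4 and Hook3 (0.815 to 0.811). Omd was most like Itgbl1, Nt5e and Dync1i1 (0.841 to 0.818), Ogn most like Aebp1, Abi3bp and Serpinf1 (0.871 to 0.854) and Podn most like Tmod2, Wnt11 and Lysmd2 (0.898 to 0.875). Serpinf1 thus appears for both Dcn and Ogn. Some likenesses were weaker over the 15 young pairs than over the 14 adult ones, as for Prelp with Pam (0.483 and 0.955) and Bgn with Vkorc1 (0.626 and 0.965). Others were much the same, as for Dcn with Serpinf1 (0.966 and 0.961).

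Of 7 other leucine-rich proteoglycans, chondroadherin (Chad), a cartilage protein without sugar chains of this kind, and Ecm2, the neighbour of Aspn, had substantial levels. Chad stood at 591, 9636 and 5603 CPM in tenocyte-like cells and was called higher at 20 weeks (log2 fold change 3.56, SE 1.03, adjusted p = 0.00862, edgeR). Adult cluster 6, whose name is uncertain, held 9847 and 6781 CPM, and young osteogenic-like cells held 5236 CPM. Cluster 9 held 699 CPM at 2 weeks and 1815 CPM in replicate 2. The part of the change of cluster in this call was not tested. In progenitor-like cells Chad was at 2.76, 90.6 and 7.46 CPM (3.98, SE 0.65, adjusted p = 1.16e-07), highest in replicate 1 as Fmod was. Ecm2 was at 177, 344 and 681 CPM in tenocyte-like cells and at 60.5, 115 and 320 CPM in progenitor-like cells, where it was called higher (1.86, SE 0.60, adjusted p = 0.0429). Tsku was at 5.35, 4.07 and 9.79 CPM in tenocyte-like cells, and Epyc, Optc, Nyx and Podnl1 had at most 3 UMIs per library there.

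The genes that build, bind or cut the family were counted from fixed lists. Over all genes tested, 4.7% were called higher and 4.8% lower in tenocyte-like cells. In progenitor-like cells 4.44% were called in either direction. Whether any list differs from these shares was not tested. In tenocyte-like cells, 0 of 10 tested collagens were called higher and 4 lower, with Col1a1 (-5.49 on the log2 scale, adjusted p = 2.20e-07, edgeR) and Col1a2 (-4.48, adjusted p = 1.97e-05) falling farthest; the median of the list was -1.67, against 0.04 for all genes tested. In progenitor-like cells 5 of 10 collagens were called lower and none higher, led by Col1a1 (-4.15) and Col3a1 (-3.74). Dcn and Bgn had no called change in either class, nor had Fmod in tenocyte-like cells; whether they differ from the collagens was not tested.

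Among 20 tested enzymes of the chondroitin and dermatan chains, 2 were higher and 1 lower in tenocyte-like cells: Chst15 (3.49, adjusted p = 1.08e-05, edgeR), which sulfates the chains, Ugdh (1.93, adjusted p = 0.00891), which makes their sugar precursor, and Chsy3 (-2.12, adjusted p = 0.00506), a chain polymerase. In progenitor-like cells 0 of 25 were called. Over all genes tested, 9.5% were called in tenocyte-like cells and 4.44% in progenitor-like cells, and no difference from these shares was tested. Of the keratan sulfate and tyrosine sulfation enzymes, 1 of 6 tested was lower in tenocyte-like cells and 2 of 7 in progenitor-like cells, and the tyrosine sulfotransferase Tpst1 was called in both (-2.59 and -2.11, adjusted p = 3.41e-05 and 0.000684).

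Of 6 tested proteinases known to cut the family, Mmp3 (2.54, adjusted p = 0.0023, edgeR) and Adamts5 (2.19, adjusted p = 0.0136) were higher in tenocyte-like cells and 3 were lower, among them Mmp14 (-2.33) and the procollagen proteinase Bmp1 (-1.96). Of 12 tested growth factors and receptors, Tgfb1 (2.23, adjusted p = 0.00319) and Bmp2 (1.94, adjusted p = 0.0158) were higher and Ccn4, a secreted partner of decorin and biglycan, was lower (-4.11, adjusted p = 2.02e-10). In progenitor-like cells 3 of 9 proteinases were called higher and 1 lower. Of the higher ones, Tll2 had 0, 0 and 6.75 CPM and Mmp3 had 1.36, 45.7 and 3.07 CPM after TMM scaling. Each was thus high in only 1 adult replicate. Tgfb1 (1.68) and Bmp2 (1.60) were again the 2 of 11 growth factors and receptors called higher there. In sums over all cells 0 genes of any of these lists were called, against 0.151% of all 13230 genes tested.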

How the data were processed

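Single-cell RNA-seq of patellar tendon (3 libraries) was analysed from the deposited UMI count matrices, made by the authors (Cell Ranger 6.1.2 and mm10, per the submitters' processing notes); the values are raw counts per gene and barcode. Annotation and count settings are not given in the sources used here. Cells with at least 500 genes, 1000 UMIs and at most 10% mitochondrial UMIs were kept, and 225, 3 and 9 likely doublets were left out (0.8% per 1000 barcodes, highest simulated-doublet score). Of 5654, 715 and 1169 barcodes, 4739, 606 and 1006 were used, with 32455806, 1791272 and 5431926 UMIs. Cells were clustered (2000 variable genes, 30 components, 15 neighbours, Leiden resolution 0.5; igraph 0.11.9) without proteoglycan genes. A cluster was named where at least 2 markers of a type were among its 10 leading genes.

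UMI sums per library were tested with edgeR 4.0.16 (TMM, filterByExpr, quasi-likelihood, Benjamini-Hochberg over all genes tested, threshold 0.05), and the scripts were tested on simulated data. The prior degrees of freedom were infinite within classes, so those tests rest on the spread common to all genes. All 10 members are named; from each list up to 2 genes per direction with the largest change past the threshold, all genes of the list of related proteoglycans, and the 3 genes most like a member. Members and lists were chosen with earlier results of these data known. Alternatives were DESeq2 1.42.0, no count filter, thinned sums, leaving out each adult library, a stricter cell filter, resolution 1.0, doublets kept and the family kept for clustering.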

Additional observations from a re-analysis of the deposited data

Results flagged for a closer look

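The age effect differed between tenocyte-like and progenitor-like cells for 4 members, by edgeR's test of the class by age interaction. On the log2 scale the difference, tenocyte-like minus progenitor-like, was 4.98 for Prelp, 3.18 for Lum, 2.22 for Omd and -2.03 for Fmod. Prelp, Lum and Omd also passed at a clustering resolution of 1.0 (4.87, 4.03 and 2.14) and with no filter on low counts. The value for Fmod rests on 47, 25 and 39 UMIs in progenitor-like cells and did not pass at resolution 1.0. The interaction test has 1 young library and 1 residual degree of freedom. The part of the change of cluster between the ages was not tested.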

How the results depend on the processing

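No paired analysis was possible because the 2-week group has 1 library and shares fewer than 2 replicate numbers with the 20-week group. Of the tested log2 values under alternatives, 274 kept their direction and side of the threshold, 19 lost the call, 10 gained one and 6 turned their sign. Other log2 values had no test, mainly those with an adult library left out. Of these, 91 stayed within 1 SE of the main value, 36 moved farther and 1 called value turned its sign. The count of members called in all cells was 0, and was 3 with no filter on low counts, 3 with DESeq2 and 3 without the 4 classes met at 1 age. In tenocyte-like cells it was 4, and 2 with thinned sums and 2 with the family kept for clustering. In progenitor-like cells it was 3, and 1 with thinned sums, 1 with DESeq2 and 1 at resolution 1.0. In cluster 0 it was 1, and 0 with DESeq2. In cluster 11 it was 1, and 0 with no filter and 0 with thinned sums. The Fmod call of cluster 11 was lost with DESeq2 too. The log2 fold change turned its sign for Lum in all cells (0.0233 with thinned sums, 0.0583 without the 4 classes), for Fmod in tenocyte-like cells (0.0555 with the family kept for clustering), for Bgn in progenitor-like cells (-0.23 at resolution 1.0), for Omd in progenitor-like cells (0.19 with doublets kept) and for Fmod in cluster 11 (from -2.59 without 20-week replicate 1 to 3.24 without replicate 2); the interaction of Podn was 0.45 at resolution 1.0. The cause was not tested. The stricter cell filter was not run for mural-like cells nor kept doublets for tenocyte-like cells, since a library then had under 20 cells. Of 60 shares of cells, 51 lay outside the thinned interval before thinning, so shares depend on depth.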
